A study of Mus musculus with 28 samples.

Results

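The genes described here encode the classical axon guidance ligands and their receptors. They were chosen by symbol from the GENCODE annotation of the mouse genome (GRCm38, mm10): protein-coding autosomal genes of the semaphorin (Sema3 to Sema7), plexin, ephrin, Eph, Slit, Robo and Unc5 families, with Ntn1, Ntn3, Ntn4, Dcc and Neo1 added by name. This gave 66 genes of 20807 protein-coding autosomal genes. They comprised 20 semaphorins, 7 plexins, 7 ephrins, 14 Eph receptors, 3 Slits, 4 Robo receptors, 3 netrins and 6 netrin receptors (Dcc, Neo1, Unc5a, Unc5b, Unc5c and Unc5d). The symbol pattern also took 2 genes that encode no netrin receptor, Unc50 (a Golgi membrane protein) and Unc5cl (an intracellular Unc5 relative), and both were kept. A further 3 genes matched by the pattern lie on chromosome X (Plxna3, Plxnb3 and Efnb1) and were outside the rule.

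The study profiled H3K4me3 and H3K27me3, histone marks of active promoters and of Polycomb-repressed chromatin, in A2a and D1 medium spiny neurons of the mouse striatum. Nuclei came from knock-in mice carrying R26-CAG-LSL-Sun1-sfGFP, a nuclear envelope tag that Cre recombination switches on, crossed to A2a-cre (group A2a) or Drd1-cre (group D1) on the C57BL/6J background. Male and female mice of about 8 weeks were used, neither group was treated, and both carried the tag. The groups differed in the Cre driver, and every cell in which that driver is or was active is included. The study processed each cell type separately, so cell type and processing cannot be told apart in these lists. Tagged nuclei were captured with an antibody to GFP (INTACT) from the striatum of a single mouse, and each mark was mapped by CUT&RUN (CnR), in which antibody-guided micrococcal nuclease releases the bound chromatin. The analysis used 4 deposited lists, each pooling 2 replicates of a cell type and mark, so that each group counted as 1 sample. No comparison between A2a and D1 could therefore be tested against the variation between mice. The D1 H3K27me3 samples are D1 by title and cell type but A2a by source name, and they were taken as D1.

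Axon guidance cues act on growing axons through receptors on the growth cone. Secreted class 3 semaphorins signal through neuropilins and plexins, other semaphorins bind plexins directly, ephrins bind Eph receptors on neighbouring cells, Slits repel axons through Robo receptors, and netrins attract through Dcc and repel through Unc5 receptors. These systems pattern the axons that enter and leave the developing striatum, and several of them persist at synapses of the adult brain. A promoter that carries both H3K4me3 and H3K27me3, here called co-enriched, is a known feature of developmental genes. With published expression data, the study found such genes in A2a and D1 neurons at an intermediate level. This lay between genes with H3K4me3 alone and genes with H3K27me3 alone. Expression was not examined here.

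The promoters of 5 of the genes illustrate the range of states described below. Ntn4 held the H3K27me3 promoter island with the most reads in both lists. Unc5d alone, of the genes with an island in both lists, had the larger read total in D1. Unc5c carried an island in D1 alone, and Sema4c had the strongest H3K4me3 peak by mean rank. Robo4 carried H3K27me3 without H3K4me3 in A2a. The Robo4 island began inside the gene, entered 9.9% of the window and did not reach the bases printed. For each, the 300 bases before the annotated transcription start site (TSS) are given from GRCm38.p6 in the direction of transcription, with every CG dinucleotide in capitals.
Ntn4, chr10:93640381-93640680, plus strand: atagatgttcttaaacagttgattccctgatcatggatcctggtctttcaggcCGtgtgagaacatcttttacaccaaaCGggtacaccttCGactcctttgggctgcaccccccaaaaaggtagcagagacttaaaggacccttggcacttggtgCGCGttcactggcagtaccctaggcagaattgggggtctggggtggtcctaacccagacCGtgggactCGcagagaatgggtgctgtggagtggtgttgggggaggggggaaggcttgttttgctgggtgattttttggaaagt
Unc5d, chr8:29219637-29219936, minus strand: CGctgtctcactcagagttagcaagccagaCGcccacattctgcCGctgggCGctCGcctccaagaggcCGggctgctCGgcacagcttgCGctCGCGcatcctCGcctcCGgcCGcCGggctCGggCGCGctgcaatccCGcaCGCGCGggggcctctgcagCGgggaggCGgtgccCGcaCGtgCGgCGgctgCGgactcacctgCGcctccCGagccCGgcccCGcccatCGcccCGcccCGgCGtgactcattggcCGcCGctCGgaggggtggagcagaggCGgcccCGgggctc
Unc5c, chr3:141464916-141465215, plus strand: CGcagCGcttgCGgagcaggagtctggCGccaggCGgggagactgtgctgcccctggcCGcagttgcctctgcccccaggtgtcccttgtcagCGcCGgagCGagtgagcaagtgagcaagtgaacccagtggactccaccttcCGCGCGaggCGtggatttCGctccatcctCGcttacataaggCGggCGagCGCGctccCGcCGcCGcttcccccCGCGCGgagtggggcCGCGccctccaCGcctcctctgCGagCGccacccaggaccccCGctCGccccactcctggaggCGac
Sema4c, chr1:36558350-36558649, minus strand: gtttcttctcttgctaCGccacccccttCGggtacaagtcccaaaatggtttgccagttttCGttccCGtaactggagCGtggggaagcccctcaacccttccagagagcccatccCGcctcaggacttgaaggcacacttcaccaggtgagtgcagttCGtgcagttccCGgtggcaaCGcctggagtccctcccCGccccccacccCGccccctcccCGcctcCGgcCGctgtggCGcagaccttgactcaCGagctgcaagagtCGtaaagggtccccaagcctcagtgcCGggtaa
Robo4, chr9:37401597-37401896, plus strand: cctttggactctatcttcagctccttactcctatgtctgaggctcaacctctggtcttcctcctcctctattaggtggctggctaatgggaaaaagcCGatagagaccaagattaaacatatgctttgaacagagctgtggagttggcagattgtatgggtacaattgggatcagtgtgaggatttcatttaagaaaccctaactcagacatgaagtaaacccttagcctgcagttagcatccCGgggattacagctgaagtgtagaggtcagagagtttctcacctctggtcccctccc
These stretches held 41 CG in Unc5d, 33 in Unc5c, 18 in Sema4c, 7 in Ntn4 and 2 in Robo4. Over the whole promoter window, which reaches 1 kb into the gene, Ntn4 had 135 CG and an observed over expected CpG ratio of 0.654, against 27 CG and 0.149 in Robo4.

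Each promoter was read in a window from 2 kb upstream to 1 kb downstream of the annotated 5′ end, with an overlap of at least 1 bp counted as a call. Nearly all of the guidance genes carried H3K4me3. A peak lay at the promoter of 59 of 66 genes (89.4%) in A2a and of 57 (86.4%) in D1, against 59.3% and 56.8% of all protein-coding autosomal genes. An H3K27me3 island, which is a broad region of reads called by SICER, lay at the promoter of 26 genes (39.4%) in A2a and 16 (24.2%) in D1, against 22.4% and 15.8% of all genes. Both marks were present at 23 promoters (34.8%) in A2a, against 9.84% of all genes, and at 15 (22.7%) in D1, against 5.79%. In 13 genes (19.7%, against 5.42% of all genes) the promoter was co-enriched in both cell types.

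H3K4me3 alone marked 36 promoters in A2a and 42 in D1, which is 54.5% and 63.6% of the genes against 49.4% and 51.0% of all genes. H3K27me3 alone was rare among them, at 3 promoters in A2a (4.55%, against 12.6%) and 1 in D1 (1.52%, against 10.0%). Neither mark was called at 4 promoters in A2a (6.06%, against 28.2%) and 8 in D1 (12.1%, against 33.2%). Among genes with an H3K4me3 peak, an island was also present at 23 of 59 in A2a (39.0%, against 16.6% of all genes with a peak) and at 15 of 57 in D1 (26.3%, against 10.2%).

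**Figure D1:**
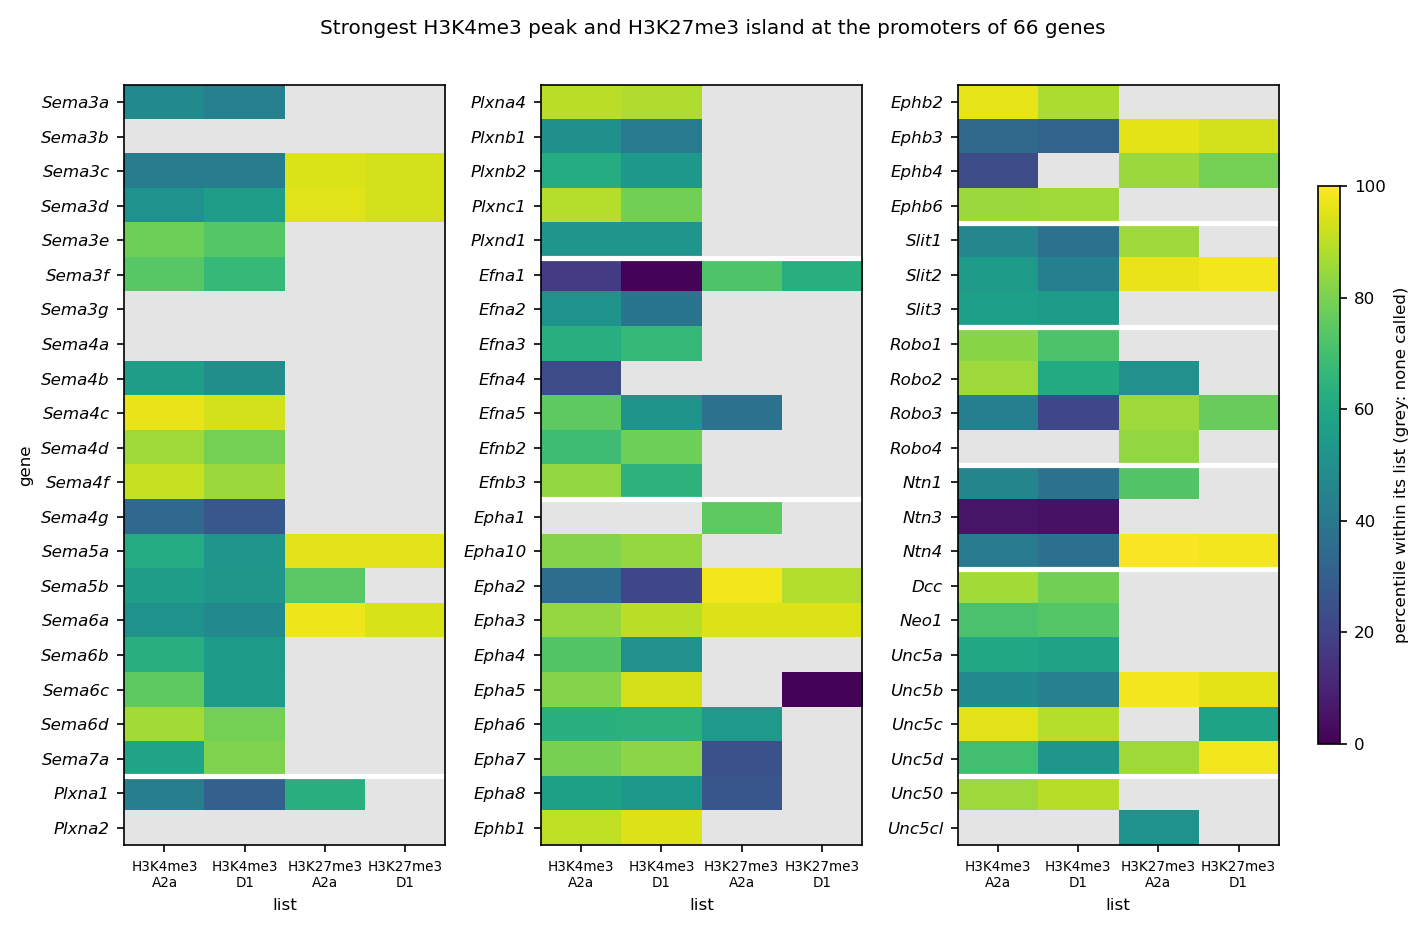
Percentile, within its own list, of the strongest H3K4me3 peak (by −log10 q) and of the H3K27me3 island with the most reads at the promoter of each of the 66 genes, in A2a and D1, with grey where none was called and white lines between families. The H3K4me3 columns are filled for 59 and 57 genes and the H3K27me3 columns for 26 and 16, and the brightest H3K27me3 cells are those of Ntn4.

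The A2a and D1 lists were not scaled to each other. The study, scaling to total mapped reads, also found more signal of both marks in A2a than in D1. It hypothesized that cell number, mouse age, immunoprecipitation efficiency, amplification or batch effects lay behind this, and not biology. After normalizing on genes of constant expression, it reported equal global signal in the 2 cell types. That normalization was not applied to the read counts used here. Summed over islands, the A2a list counted 22091634 reads and that of D1 7878685, a ratio of 2.80, and the A2a islands covered 1.63 times as many bases at a mean of 73.4 reads per kb against 42.8, a ratio of 1.72. A read total grows with the length of its island, so the reads per kb are given where totals are compared. The smallest island held 36 reads in A2a and 27 in D1. Strength is therefore ranked as a percentile within each list, the share of its islands or peaks at or below the value, and the part that this difference between lists plays in the islands called in A2a alone was not tested. As a check of the labels, all 4 markers of D1 neurons tested (Drd1, Pdyn, Tac1 and Isl1) held islands at or above the 98.3 percentile in A2a and at or below the 85.2 percentile in D1. Of the 4 markers of A2a neurons, Adora2a and Gpr6 held an island in D1 alone. The others, Drd2 and Penk, held one in both lists, at percentiles 31.5 and 46.8 in A2a and 96.4 and 99.1 in D1. H3K4me3 peaks were present at 4 of 5 oligodendrocyte markers in A2a and 3 in D1, and at 2 of 5 astrocyte markers in both. They were present at 2 of 5 microglial markers in A2a and 0 in D1, and at 1 of 5 cortical excitatory neuron markers in A2a and 2 in D1. Over all genes the shares were 59.3% in A2a and 56.8% in D1. The peaks ranged from Mbp, at percentiles 88.1 and 80.7, to Olig2 in D1, at 1.13. The part of these other cell types in the values below was not tested.

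Islands were found in ligand and receptor families alike. Of the 33 ligand genes, 11 held a promoter island in A2a (33.3%, against 22.4% of all genes) and 7 in D1 (21.2%, against 15.8%). Of the 31 receptor genes, 14 held an island in A2a (45.2%, against 22.4%) and 9 in D1 (29.0%, against 15.8%). The Eph receptors had islands at 8 of 14 promoters in A2a (57.1%) and 5 in D1 (35.7%), and the plexins at 1 of 7 in A2a (14.3%) and 0 in D1. Among the smaller families, islands lay in A2a at 2 of 3 Slits, 2 of 3 netrins and 3 of 4 Robo receptors. In D1 each of these families had 1. The ephrins had islands at 2 of 7 in A2a and 1 in D1, and the netrin receptors at 2 of 6 and 3. Differences between families were not tested.

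Among the ligands, semaphorins form the largest family, and 17 of 20 had an H3K4me3 peak in both lists. Co-enriched promoters were found in 5 of them in A2a (Sema3c, Sema3d, Sema5a, Sema5b and Sema6a), and 4 of these, all but Sema5b, were co-enriched in D1 too. Sema3c and Sema3d encode secreted class 3 semaphorins. The Sema3c island held 938 reads (exact 95% Poisson interval 878.9 to 1000) over 9.8 kb in A2a and 374 (337.1 to 413.9) over 7.4 kb in D1. Sema3d was similar, with 1066 reads (1003.0 to 1132.0) and 372 (335.2 to 411.8). All 4 of these islands lay between the 93.2 and 95.3 percentiles of their lists. These intervals, here and below, cover counting error only.

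Sema5a, a transmembrane semaphorin with thrombospondin repeats, held 1093 reads (1029.2 to 1159.8) in A2a and 480 (438.0 to 524.9) in D1, both at the 95.5 percentile. It held 113.9 reads per kb in A2a and 75 in D1. Its A2a island covered 100% of the promoter window, whereas the D1 island began inside the gene and covered 7.0% of it. Sema6a, a transmembrane ligand of class A plexins, held 1548 reads (1471.8 to 1627.1) over 11.0 kb in A2a and 399 (360.8 to 440.1) over 6.4 kb in D1. Sema5b, the closest relative of Sema5a, carried an island in A2a alone with 350 reads (314.3 to 388.7) over 4.8 kb, and the nearest D1 island was 3.35 kb from the window. With every annotated start counted, Sema5b had an island in D1 too.

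The remaining semaphorins had no promoter island in either list. Sema4c, a transmembrane ligand of class B plexins, had the strongest H3K4me3 peak of all 66 genes by mean percentile, with a −log10 q of 221.9 and 6.74-fold enrichment over local background in A2a and 139.1 and 6.64-fold in D1 (percentiles 96.6 and 93.3). Sema7a, which is tethered to the membrane by a lipid anchor, was chosen after its values were seen because it had the largest rise in H3K4me3 percentile, from 58.4 in A2a to 80.8 in D1 (−log10 q 89.2 and 103.9). Over the 57 genes with a peak in both lists the difference, D1 minus A2a, ranged from −24.4 to 22.4 percentile points with a median of −6.12, against a median of −3.87 over all 11788 such genes. Sema3e, a secreted ligand of Plxnd1, carried H3K4me3 only in both cell types, at percentiles 77.9 and 73.8.

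At 3 semaphorin genes no H3K4me3 peak reached the window at the annotated 5′ end in either list. Sema4a had a peak at other annotated starts, the nearest 2.08 kb into the gene, with a −log10 q of 48.7 in A2a and 22 in D1. Sema3b and Sema3g had no peak at any annotated start. The nearest peak to the Sema3b window was 0.81 kb away in A2a and 0.963 kb in D1, and a window of 5 kb on each side reached it. For Sema3g the nearest peak was 8.46 kb away in A2a and 8.61 kb in D1.

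Ephrins are bound to the membrane of the signalling cell, and 7 of 7 genes had an H3K4me3 peak in A2a and 6 in D1. Efna1 was co-enriched in both, with 332 reads (297.2 to 369.7) in A2a and 126 (105.0 to 150) in D1, and its H3K4me3 peak was weak, with a −log10 q of 9.57 and 2.92 (percentiles 17.9 and 1.02). Efna5 carried an island in A2a alone, with 175 reads (150 to 202.9) over 2.8 kb, while its H3K4me3 peak lay at percentiles 75.0 and 51.8. Efna4 had an H3K4me3 peak in A2a alone, with a −log10 q of 12.5 and 5.57-fold enrichment, and no island in either list.

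The 3 Slit genes each carried H3K4me3 in both lists. At Slit2, whose product repels axons that express Robo receptors, the island held 1303 reads (1233.2 to 1375.7) over 8.0 kb in A2a and 815 (760.0 to 872.9) over 9.6 kb in D1, at percentiles 96.6 and 98.1. The ratio of read totals, A2a over D1, was 1.60 against 2.80 for the lists, but the D1 island was the longer, and per kb the ratio was 1.92 (162.9 against 84.9 reads per kb) against 1.72 for the lists. Slit1 carried an island in A2a alone, with 512 reads (468.6 to 558.3) over 8.4 kb, the most of the 12 promoter islands called in A2a alone. The nearest D1 island lay 1.06 kb outside its window, and a window of 5 kb on each side made the Slit1 island shared. Slit3 had H3K4me3 only, at percentiles 56.5 and 54.7.

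Netrins are secreted relatives of laminin. Ntn4 held the promoter island with the most reads of the set in both lists, at percentiles 99.3 and 98.2. It held 3472 reads (3357.5 to 3589.4) over 25.8 kb in A2a (chr10:93630201-93656000) and 831 (775.5 to 889.5) over 14 kb in D1 (chr10:93631601-93645600). Per kb these were 134.6 reads in A2a and 59.4 in D1, below Slit2 (162.9 and 84.9) and Sema6a (140.7 and 62.3). The Ntn4 H3K4me3 peak was called in both lists, with a −log10 q of 35 and 23.3. Ntn1, the main attractant for Dcc-expressing axons, carried an island in A2a alone with 335 reads (300.1 to 372.9), and the nearest D1 island was 791.0 kb away. Ntn3 had the weakest H3K4me3 peak by mean percentile, with a −log10 q of 5.43 in A2a and 4.59 in D1. Ntn3 overlaps Tbc1d24 at its far end, but the peak does not lie within that gene.

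Among the receptors, plexins transmit semaphorin signals, and 6 of 7 had an H3K4me3 peak in both lists. Plxna1, a partner of neuropilins, was the only plexin with a promoter island. It was called in A2a alone, with 266 reads (235.0 to 300), and covered 6.03% of the window, since most of it lay within the gene. The call was lost when an overlap of 200 bp was required, and with every annotated start counted Plxna1 had an island in both lists. Plxna2 had no peak at its annotated 5′ end, but a peak of 3484 bp in A2a and 3490 bp in D1 lay over an annotated start 1.61 kb into the gene, with a −log10 q of 128.6 and 82.0. Plxna4 had the strongest plexin peak, at percentiles 89.7 and 88.0. Plxnd1, the receptor of Sema3e, lay at percentiles 52.1 and 52.0 and had no island in either cell type.

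Eph receptors are tyrosine kinases that bind ephrins on contact, and 13 of 14 had an H3K4me3 peak in A2a and 12 in D1. Islands were called in both lists at Epha2, Epha3, Ephb3 and Ephb4. Epha2 had the largest ratio of read totals of the 14 guidance genes with an island in both, 6.51, with 1719 reads (1638.7 to 1802.2) over 22.6 kb in A2a and 264 (233.1 to 297.8) over 6.0 kb in D1. The A2a island was also the longer, and per kb the ratio was 1.73 (76.1 against 44 reads per kb), close to the 1.72 of the lists. Its percentile by read total fell from 97.8 to 88.3, and its H3K4me3 peak was among the weakest, with a −log10 q of 25.6 and 9.97. Epha3 held 1019 reads (957.4 to 1083.5) and 432 (392.2 to 474.7), and Ephb3 held 1146 (1080.6 to 1214.3) and 365 (328.5 to 404.4). Epha3 combined this island with a strong H3K4me3 peak, at percentiles 84.0 and 89.7, whereas the Ephb3 peak lay at 34.4 and 32.2.

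Ephb4 was the only guidance gene with H3K27me3 alone in D1. Its island held 509 reads (465.7 to 555.2) in A2a and 184 (158.4 to 212.6) in D1, and an H3K4me3 peak with a −log10 q of 11.8 was called in A2a alone. Together, Efna4 and Ephb4 were the 2 genes with H3K4me3 in a single list (3.03%, against 2.61% of all genes for A2a alone), and 0 genes had it in D1 alone (against 0.154%).

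In A2a alone, islands were called at Epha1, Epha6, Epha7 and Epha8. The Epha1 island held 356 reads (320.0 to 395.0) and covered 100% of the window, and no H3K4me3 peak was called there in either list. Epha6, Epha7 and Epha8 held 224, 147 and 150 reads, between the 25.1 and 53.8 percentiles, and carried H3K4me3 in both lists. Epha5 had the reverse pattern, with an island in D1 alone, but this held 45 reads (32.8 to 60.2) over 1.2 kb and lay at the 0.881 percentile of its list. The Epha5 H3K4me3 peak was strong in both lists, at percentiles 81.3 and 93.5. Ephb1 and Ephb2, receptors of class B ephrins, were among the genes with the strongest H3K4me3, at percentiles 90.3 and 94.9 for Ephb1 and 96.4 and 87.5 for Ephb2, and neither had a promoter island.

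Robo1 and Robo2 are receptors of Slits. Robo1 carried H3K4me3 only, at percentiles 82.3 and 72.2. Robo3, which controls midline crossing, was co-enriched in both lists with 510 reads (466.7 to 556.2) and 171 (146.3 to 198.6). Robo2 carried an island in A2a alone with 212 reads (184.4 to 242.5), over 32.5% of the window, together with an H3K4me3 peak at percentiles 85.4 and 61.0. Robo4, the vascular member of the family, had no H3K4me3 peak in either list. Its A2a island held 479 reads (437.1 to 523.9) over 8.8 kb (chr9:37402601-37411400) but entered only 9.90% of the window, and the nearest D1 island was 14.1 kb away.

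The netrin receptors all carried H3K4me3 in both lists. Dcc, Neo1 and Unc5a had no island at the promoter or elsewhere in the gene in either list. Unc5b held 1860 reads (1776.4 to 1946.5) over 22.6 kb in A2a and 507 (463.8 to 553.1) over 12.6 kb in D1. Of the guidance genes with a promoter island in both lists, Unc5d was the only one with the larger read total in D1, 716 (664.5 to 770.4) over 14.6 kb (chr8:29210801-29225400) against 527 (483.0 to 574.0) over 7.6 kb in A2a (chr8:29215401-29223000). This was 1 of 14 genes (7.14%, against 2.02% of all such genes). The D1 island was the longer, and per kb A2a held more, 69.3 reads against 49, with a ratio of 1.41 that was the lowest of the 14 genes. Its percentile by read total rose from 85.9 to 97.7 while its H3K4me3 percentile went from 69.9 to 52.6.

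Unc5c carried an island in D1 alone, with 116 reads (95.9 to 139.1) over 3.2 kb at the 57.9 percentile, and one of the strongest H3K4me3 peaks, with a −log10 q of 212.4 in A2a and 121.8 in D1. An A2a island ended 0.016 kb outside the Unc5c window, so the absence of a call in A2a rested on the edge of the window. The 2 genes outside the netrin receptors, Unc50 and Unc5cl, differed from each other. Unc50 had H3K4me3 only, at percentiles 85.2 and 89.3. Unc5cl had an A2a island of 213 reads and no H3K4me3 peak in either list, and its island also reached the promoter of Tspo2. Apart from this island, which meets Tspo2, and the Unc50 peak, which meets Coa5, the strongest promoter peaks and islands of the 66 genes lay outside the annotated span of every other protein-coding autosomal gene.

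In all, islands were shared at 14 promoters (21.2%, against 14.7% of all genes), present in A2a alone at 12 (18.2%, against 7.65%) and in D1 alone at 2 (3.03%, against 1.05%). The median ratio of read totals, A2a over D1, was 2.82 over the 14 shared promoters, with a range from 0.736 to 6.51, against 2.61 over 3069 genes. Per kb the range was narrower, from 1.41 at Unc5d to 2.27 at Ntn4, with a median of 1.96. Over the 3069 genes the ratio per kb ran from 0.771 to 5.37 with a median of 1.88, and the whole lists gave 1.72. A higher percentile by read total in D1 was seen at Unc5d, Slit2 and Sema5a, 3 of 14 genes (21.4%, against 29.3% of all genes with both), with rises of 11.7, 1.52 and 0.0215 points. The largest falls were at Efna1 and Epha2, which fell by 9.61 and 9.57 points, followed by Robo3, which fell by 8.63, Ephb4, which fell by 6.01, and Sema6a, which fell by 3.46.

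**Figure D2:**
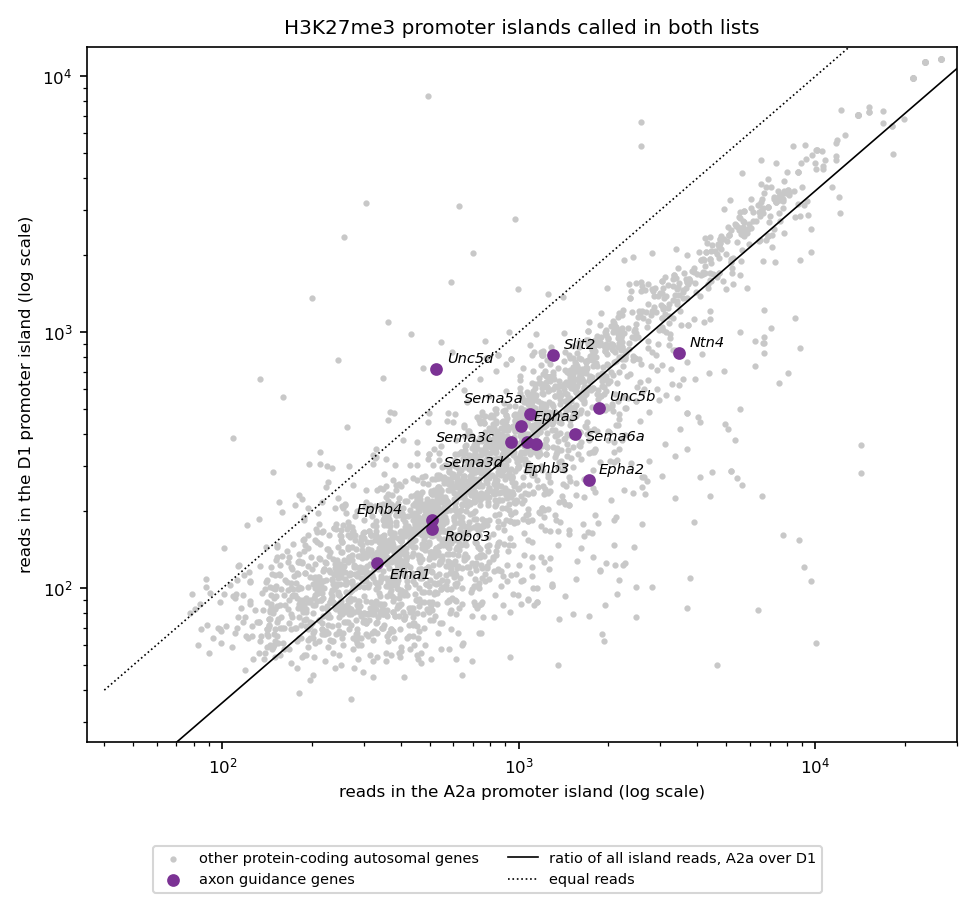
Reads in the promoter island with the most reads in A2a (horizontal) and D1 (vertical), on log scales, for genes with an island in both lists, with the 14 guidance genes named, the solid line at the ratio of all island reads (2.80) and the dotted line at equal reads. Unc5d, at 527 and 716 reads, is the only named gene above the dotted line, and Epha2, at 1719 and 264, lies farthest to the right of the solid line.

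The median H3K4me3 percentile was higher at promoters without an island. In A2a the median percentile of the strongest peak was 51.4 at the 23 co-enriched promoters and 74.6 at the 36 with H3K4me3 only, and in D1 it was 43.8 at 15 promoters and 64.5 at 42. Over all genes the corresponding medians were 43.5 and 76.5 in A2a and 35.4 and 74.2 in D1, so the difference was not particular to the guidance genes. The peaks had similar median lengths at co-enriched and at H3K4me3-only guidance promoters in A2a, 2.1 and 2.06 kb, against 1.33 and 1.67 kb over all genes. In D1 the medians were 1.30 and 1.95 kb, against 1.13 and 1.55 kb.

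Guidance genes are long, with a median of 62.8 kb against 17.6 kb for all genes, and islands were read along their whole length. An island lay somewhere in 33 genes in A2a (50.0%, against 28.7% of all genes) and in 26 in D1 (39.4%, against 21.7%). Islands covered at least 50% of 6 genes in A2a (9.09%, against 9.31%), namely Sema6a, Plxna1, Ephb3, Robo4, Ntn4 and Unc5b, and of 0 genes in D1 (against 4.95%). Sema6a was the most covered, at 85.3% in A2a by 11 islands with 10390 reads in all, the longest of 35 kb, and at 22.3% in D1 by 7 islands with 1405 reads. Plxna1 had 70.2% covered in A2a and 35% in D1, Unc5b had 66.9% and 41.4%, and Ephb3 had 66.6% and 33.7%. Ntn4 was covered over 66.4% in A2a and 18.5% in D1. Robo4 was covered over 66.6% in A2a by a single island and had none in D1.

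In D1 the most covered genes were Sema5a (45.1%), Unc5d (43.1%), Unc5b (41.4%), Slit2 (38.5%) and Plxna1 (35%). Of the 35 guidance genes with an island in either list, 7 had a larger part covered in D1 (20%, against 13.8% of all such genes), namely Sema5a, Plxna4, Plxnc1, Epha5, Slit2, Unc5c and Unc5d. A margin of 10 percentage points or more in favour of D1, a threshold chosen after the values were seen, was met by 2 of them, Unc5d and Slit2 (5.71%, against 4.41%), and the same margin in favour of A2a by 13 (37.1%, against 47.9%).

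**Figure D3:**
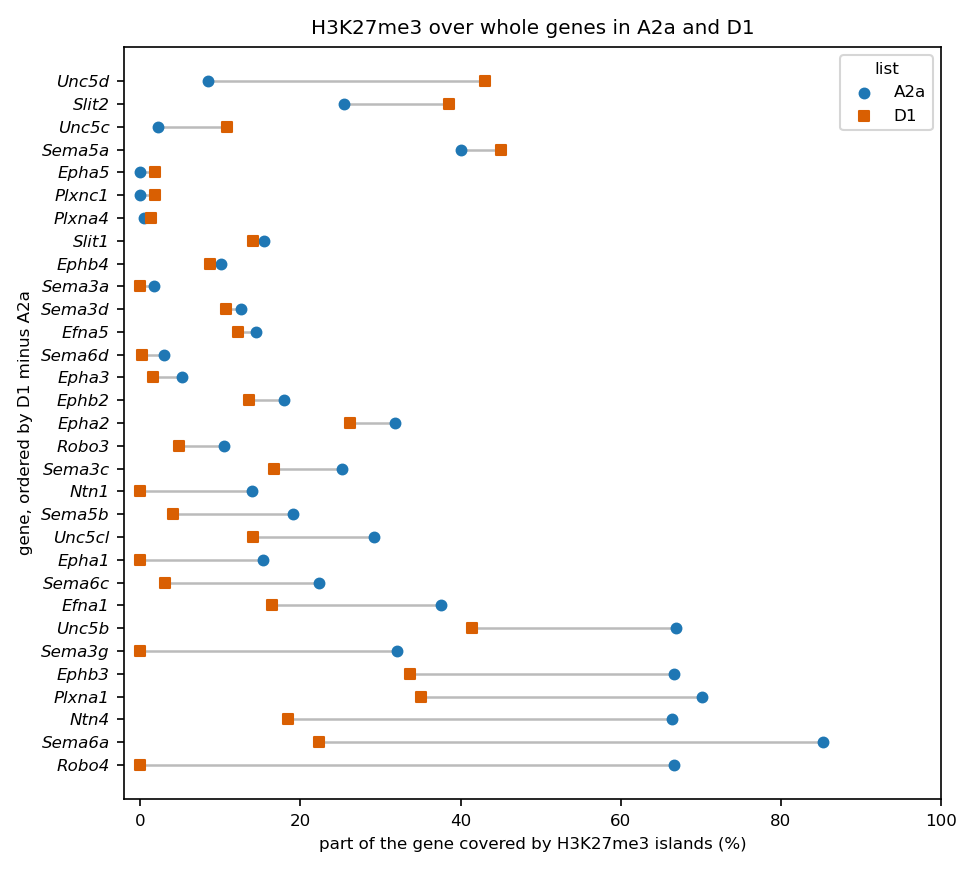
Part of each gene covered by H3K27me3 islands (%) in A2a (circles) and D1 (squares) for the 31 guidance genes in which islands cover at least 1% in either list, ordered by the difference. Unc5d rises from 8.42% in A2a to 43.1% in D1 at the top, and Robo4 falls from 66.6% to 0 at the bottom.

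Unc5d differed most in this direction. In A2a, 11 islands with 2956 reads touched the gene and in D1, 46 islands with 10282 reads, covering 8.42% and 43.1% of its 572.9 kb, at 57.3 and 40.7 reads per kb of island. The island with the most reads in D1 was 25.6 kb long, held 977 reads (98.5 percentile) and was centred 536.2 kb from the start of the gene. A short H3K4me3 peak of 427 bp was called there, from 536.4 to 536.8 kb, in A2a and not in D1 (−log10 q 8.63, 15.8 percentile). An A2a island of 115 reads, from 538.0 to 540.0 kb, lay beside this peak and within the same D1 island.

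Slit2 had 17 islands with 5845 reads in A2a and 29 with 5284 in D1, covering 25.4% and 38.5% of the gene. Per kb of island these were 69.6 reads in A2a and 42.2 in D1. Sema5a was covered to a like extent in both, by 33 islands with 12244 reads in A2a and 38 with 8254 in D1 (40.1% and 45.1%). Unc5c had 2 islands in A2a and 10 in D1 (2.22% and 10.8%). At least 10 islands, a number also chosen after the values were seen, were found in 4 genes in A2a (6.06%, against 2.11%) and 5 in D1 (7.58%, against 1.69%). Among long genes the shares were close to or below those of all genes: of genes of at least 300 kb, 3 of 15 guidance genes reached 10 islands in A2a (20%, against 30.5% of 541 genes) and 4 of 15 in D1 (26.7%, against 26.6%).

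**Figure D4:**
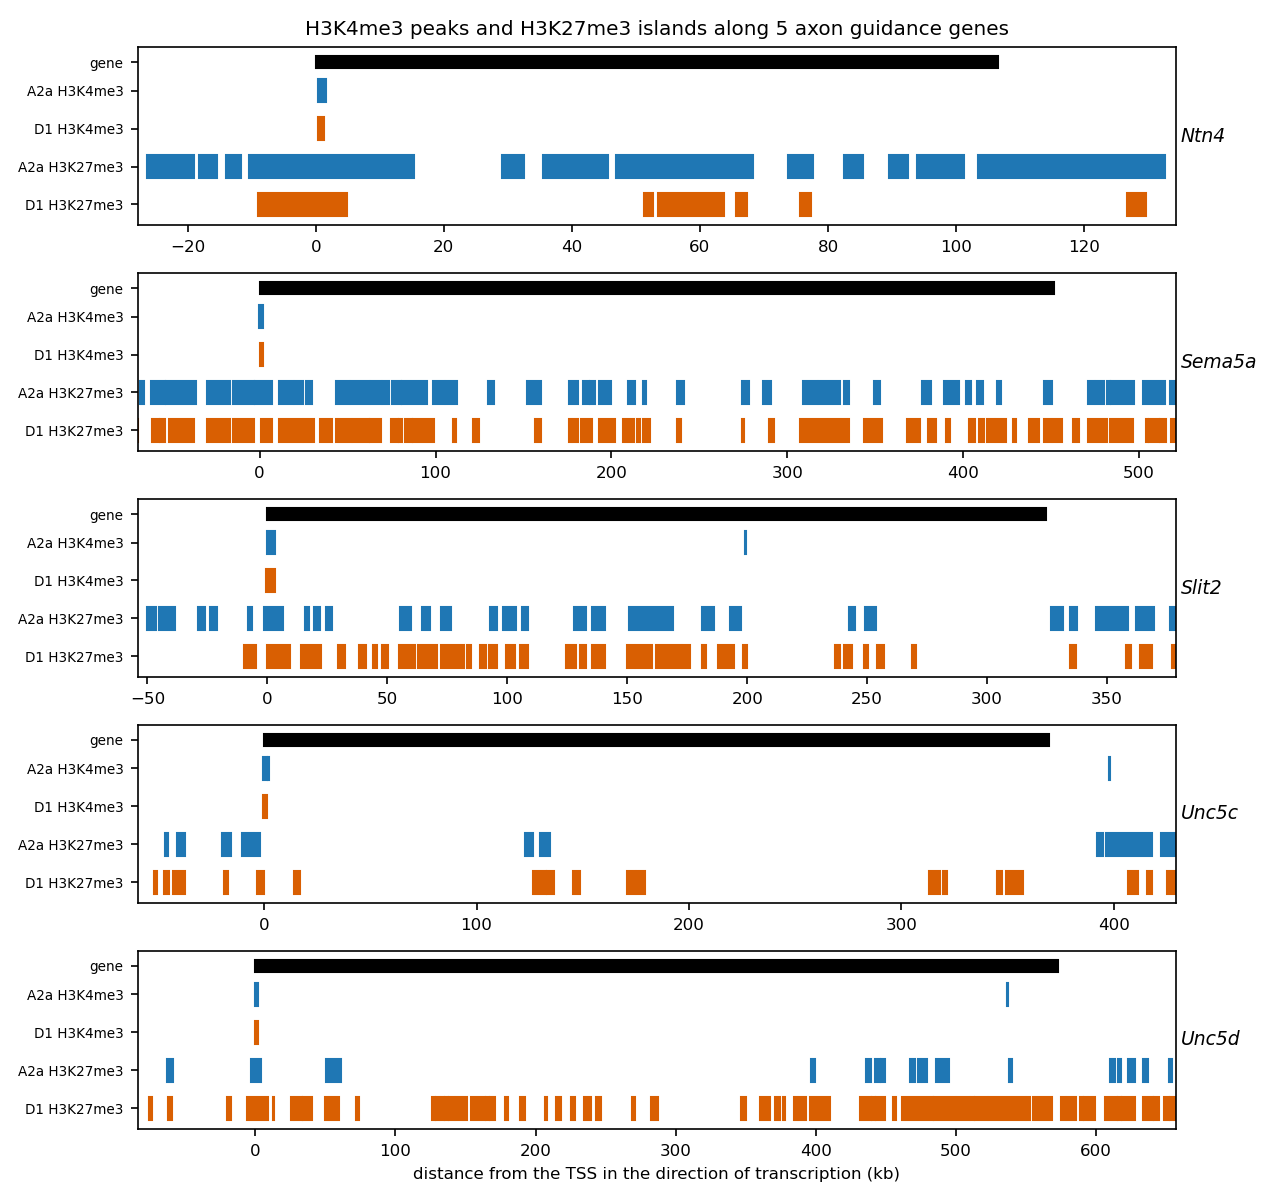
H3K4me3 peaks and H3K27me3 islands of A2a (blue) and D1 (orange) along Ntn4, Sema5a, Slit2, Unc5c and Unc5d, with distance from the TSS in kb in the direction of transcription, the gene as a black bar and very short items widened to stay visible. The D1 islands of Unc5d, 46 in all, also lie across the stretch from 61 to 396.2 kb where A2a has none, whereas the A2a islands of Ntn4 are longer than those of D1.

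H3K4me3 peaks also lay inside the genes, outside the promoter window. In A2a there were 72 such peaks in 34 guidance genes and in D1 53 in 31 genes. Of these peaks, 13 and 12 lay at another annotated start of the same gene. The matching shares over all genes were not computed, and guidance genes are long, as given above, so these counts are descriptive only. Of the A2a peaks 24 had no overlap in D1 (33.3%, against 29.7% of 6924 such peaks over all genes), and of the D1 peaks 1, at Epha3, had none in A2a (1.89%, against 9.32% of 5603). Robo1, a gene of 737.8 kb, had the most in A2a, 13, and shared the most in D1, 6, with Epha7. The strongest of those in Robo1, at another annotated start from 354.6 kb into the gene, had a −log10 q of 241.3 in A2a and 148.7 in D1 (percentiles 98.0 and 95), above the peak at the annotated 5′ end (153.3 and 88.2). Epha3 had a peak of like rank 6.08 kb into the gene in A2a and 6.06 kb in D1, at percentiles 98.2 and 96.9, with no annotated start there. Both were chosen after their values were seen.

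CpG content of the promoters, a sequence property that the choice of genes did not use, had a lower median without H3K4me3, as over all genes. The order of the other classes differed. Over all genes the median was lower at co-enriched promoters than at those with H3K4me3 only, which was not so among the guidance genes. The median observed over expected CpG ratio was 0.515 for the 66 promoters, against 0.409 for all. In A2a it was 0.534 at co-enriched promoters (against 0.495), 0.530 at those with H3K4me3 only (0.537), 0.236 at those with H3K27me3 only (0.246) and 0.160 at those with neither (0.160). In D1 the co-enriched promoters had 0.603, against 0.520, and those with H3K4me3 only 0.528, against 0.537. With H3K27me3 only, which was Ephb4 alone, the ratio was 0.488, against 0.296. With neither mark it was 0.167, against 0.167, and reached 0.403 among the guidance genes. The 3 genes with H3K27me3 only in A2a, Epha1, Robo4 and Unc5cl, had ratios of 0.331, 0.149 and 0.236. Of the H3K4me3-marked promoters Robo1 had the lowest ratio, 0.202, and Neo1 the highest, 0.909.

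**Figure D5:**
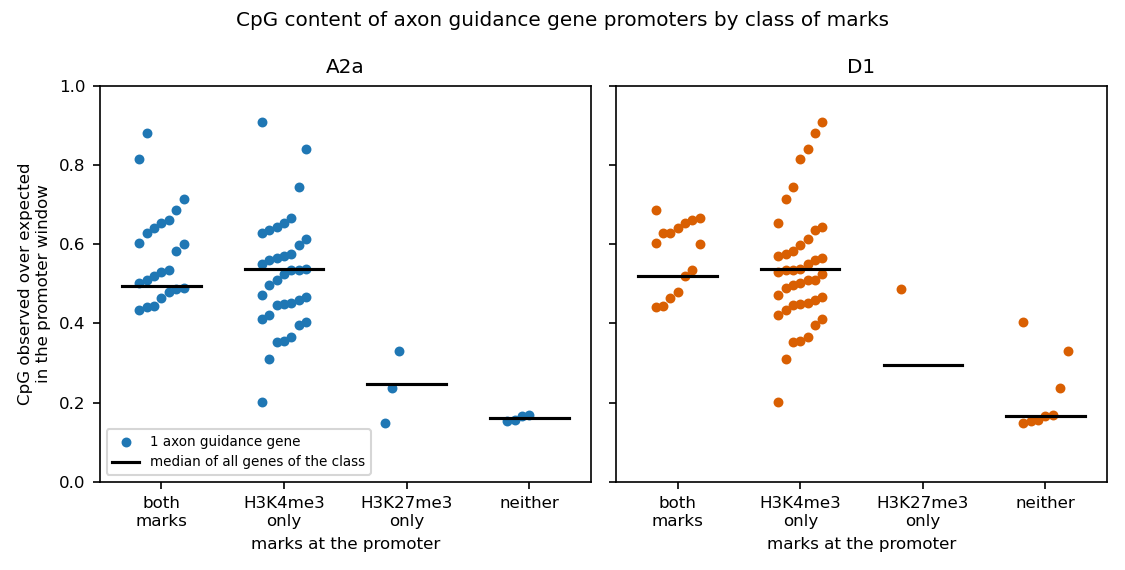
Observed over expected CpG ratio in the promoter window by the marks called there, in A2a (left) and D1 (right), with 1 point for each guidance gene and a black line at the median of all genes of the class. The points with neither mark in A2a lie at 0.154 to 0.169, below every point with H3K4me3.

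Searching the 300 bases before each TSS on both strands, the letters GGGCGG, the core of GC boxes, were found in 46 of 66 promoters (69.7%, against 41.0% of all promoters), among them Unc5d and Sema4c of the sequences above but not Ntn4, Unc5c or Robo4. TATAAA, the letters of a TATA box, was found in 3 (4.55%, against 13.8%), namely Slit2, Efnb2 and Sema3a. These are matches of letters only.

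Other genes of the pathways were read in the same way. Of 14 co-receptors and further ligands, 11 had an H3K4me3 peak in A2a (78.6%, against 59.3% of all genes) and 10 in D1 (71.4%, against 56.8%). A promoter island was present at 9 in A2a (64.3%, against 22.4% of all genes) and 7 in D1 (50.0%, against 15.8%). Those with islands in both were Nrp2, Rgma, Rgmb, Chl1, Dscam, Ntng1 and Ntng2. Nrp2, a neuropilin that serves as co-receptor for class 3 semaphorins, held 3427 reads in A2a and 1783 in D1, at percentiles 99.3 and 99.4, while Nrp1 had no island. Dscam, a further netrin receptor, held 6389 reads over 41.6 kb in A2a and 82 over 1.6 kb in D1. Of 36 cytoplasmic effectors, which carry the signal to the cytoskeleton, 35 had an H3K4me3 peak in each list (97.2%, against 59.3% in A2a and 56.8% in D1). An island was present at 7 in A2a (19.4%, against 22.4%) and 4 in D1 (11.1%, against 15.8%), and Dpysl3, Mical1 and Farp1 held it in both.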

How the data were processed

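H3K4me3 and H3K27me3 were profiled by CUT&RUN in INTACT-isolated A2a and D1 striatal nuclei. The series holds 28 samples, of which 8 stand behind the 4 lists used here, and the other 20 (N2a cells, controls, other antibodies) were not analysed here. Per the study's methods, the authors aligned paired-end reads to mm10 with bowtie2 (2.1.0), filtered them with SAMtools (0.1.19), removed duplicates with Picard. They called H3K27me3 islands with SICER (window 200 bp, gap 600 bp, FDR 0.01) on merged replicates, and the deposited value is the raw count of reads in each island. H3K4me3 peaks were called with MACS2, and the deposited columns are the fold enrichment (a ratio over local background within the library), the −log10 q, a score made from the q-value, the −log10 p and the summit, of which the last 3 were not used. That the H3K4me3 lists come from the Abcam antibody is taken from the study, and that they pool replicates from there being 1 list per cell type.

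Lists were read with Python 3.11.15 and numpy 2.4.6 against GENCODE M21, and intervals were computed with scipy 1.17.1. None of the 146377 autosomal items ran past a chromosome end of GRCm38.p6. For each gene the strongest peak by −log10 q and the island with the most reads in the window were taken. Shares of the 66 genes are set beside the same share over all protein-coding autosomal genes. With 1 pooled list per group, no test was made. Depth per list is known for H3K27me3 only as reads in islands. Overlap counting was tested on simulated intervals. Genes named with values are those with an island in a single list, the 10 with the highest mean island percentile, the 5 largest rises and falls between cell types, those without an H3K4me3 peak, the 3 strongest and weakest peaks, and the 5 most covered genes per list. Other genes that are given with values illustrate their family. The genes and lists were chosen with earlier results of these data known.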

Additional observations from a re-analysis of the deposited data

How the results depend on the processing

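Over 15 counts and 111 alternatives in 10 settings (narrower and wider windows, any annotated start, stricter peaks, longer or merged islands, lists cut to equal length, a larger overlap, and the set without Unc50 and Unc5cl, the last chosen after seeing the data), 108 stayed within 1.5 times the reported count. With a −log10 q of at least 5, the genes with H3K4me3 in a single list went from 2 to 4, as Efna1 and Ntn3 lost their D1 peak. With islands of at least 2000 bp, the genes with an island in D1 alone went from 2 to 1, without Epha5. With islands within 5 kb merged, the genes covered over at least 50% in D1 went from 0 to 4 (Plxna1, Sema5a, Slit2 and Unc5d). With a window of 5 kb on each side the count for D1 alone stayed at 2, but Unc5c left and Ephb2 entered. Of the 12 genes with an island in A2a alone, Slit1 became shared in that window, Plxna1 and Sema5b became shared with every annotated start counted, Plxna1 was lost at an overlap of 200 bp, and Unc5cl was lost in a window of 1 kb on each side. No paired analysis was possible because each list pools its replicates, and for the same reason no replicate could be left out. An island absent from a list was not called there, which does not show that the mark is absent. The A2a islands were also cut from 60191 to the 45760 with the most reads, the number in the D1 list. The weakest A2a promoter island of the set, at the 25.1 percentile, lay above that cut, so all 12 genes kept theirs. This outcome was fixed by the ranks, and the cut does not equalize reads. The part of read depth was not tested.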
